A study of Rattus norvegicus with 4 samples.

Results

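The genes of the Notch pathway were followed in Schwann cells (SCs) of the rat in culture, the myelin-forming glia of peripheral nerve, after ectopic expression of the Egr2-AS, an antisense RNA of the *Egr2* promoter. The set comprises the receptors Notch1, Notch2 and Notch3, the ligands Jag1, Jag2 and Dll1, the feedback inhibitor Nrarp and the target repressors Hes1, Hey1 and Hey2. Of these 10 genes, 9 were taken by symbol from the table of 17949 genes and Jag2 was not analysed here. The set was chosen by the rise of Nrarp in Lenti-AS, so the Nrarp values are given as a description, with no test. The other genes were listed for their place in the pathway.

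RNA-seq was performed on primary rat SCs of the sciatic nerve, kept in medium with 10% serum, 4 μM forskolin, which raises cyclic AMP, and 5 ng/ml heregulin-β1, a neuregulin that binds ErbB receptors. The Lenti-AS group (n = 2) was infected for 48 h with a lentivirus carrying the Egr2-AS, and the Lenti-GFP group (n = 2) for the same 48 h with the GFP-carrying backbone virus, both at 2 UFC per cell, the unit as the labels write it. The Egr2-AS vector carries a red fluorescent reporter, so reporter and antisense RNA cannot be told apart as the source of a difference between the groups. The labels call the samples biological replicates but name no separate cultures, animals, strain or age, so p-values measure the spread between these samples, which may be technical.

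Notch receptors are single-pass membrane proteins that are activated by Delta and Jagged ligands on a neighbouring cell. Binding leads to cleavage by an ADAM protease and then by γ-secretase, and the released intracellular domain joins the DNA-binding protein RBPJ and a Mastermind coactivator to switch on target genes, among them the Hes and Hey repressors and Nrarp. Nrarp binds the intracellular domain and lowers its activity, which makes it a feedback inhibitor. In the Schwann cell lineage, Notch signaling is known to promote the formation and proliferation of immature SCs, to oppose myelination and to be held down by Egr2 as myelination begins.

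Total counts per sample lay between 74024323 and 96185890. Lenti-AS 1 stood furthest apart. Of the 10251 genes whose mean reached 1 CPM (counts relative to the library total, scaled by edgeR's TMM factors), 188 differed more than 2-fold between the Lenti-AS samples and 9 between the Lenti-GFP samples. Of 9 Schwann cell markers in the table, 8 were above 1 CPM in every sample, among them S100b (2030 to 2360 CPM), Erbb3 (448 to 561 CPM) and Sox10 (61.2 to 163 CPM). Gap43 was below 1 CPM throughout. Summed, these markers reached 6530 and 6490 CPM in Lenti-GFP 1 and 2 and 8330 and 7060 CPM in Lenti-AS 1 and 2. Egr2, the gene at whose promoter the antisense RNA arises, was not lower in Lenti-AS. It had 49.2, 42.1, 61.2 and 54.0 CPM in the samples from Lenti-GFP 1 to Lenti-AS 2, so both Lenti-AS samples lay above both Lenti-GFP samples, with a log2 fold change of 0.33 (standard error 0.11, adjusted p = 0.152, edgeR's quasi-likelihood test). Of the endothelial markers 7 of 8, of the macrophage markers 6 of 8 and of the fibroblast markers 4 of 8 were also below 1 CPM in every sample, including Pecam1, Cdh5, Ptprc, Dcn and Lum. Summed over the lists, endothelial markers ranged from 21.1 to 21.3 CPM with Lenti-GFP and from 15.9 to 16.3 CPM with Lenti-AS, nearly all of it Tek, and mural markers from 249 to 276 CPM and from 237 to 293 CPM, mostly Pdgfrb. Fibroblast markers summed to 3680 to 4110 CPM with Lenti-GFP and to 2700 to 4340 CPM with Lenti-AS, nearly all of it the collagens Col1a1 and Col3a1, and macrophage markers to 3.38 to 3.41 CPM and to 4.03 to 4.44 CPM. The part of these lists in the results below was not tested. In bulk RNA, fewer cells of a type and less RNA per cell cannot be told apart.

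Among the Notch genes with a test, the ligand Jag1 was the only one that passed. It fell to about 0.505 of its Lenti-GFP level in Lenti-AS. Nrarp, which chose the set, was 1.98-fold higher in Lenti-AS. The receptors Notch1 and Notch3 were high in Lenti-AS 1 but not in Lenti-AS 2, and the target repressors Hes1, Hey1 and Hey2 differed by 1.18-fold or less.

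The promoters of Nrarp and Jag1, the members above 1 CPM whose groups were furthest apart on the log2 scale, and of Hes1, the best known RBPJ target, are shown first because these genes sit at different points of the same feedback circuit. Each is the 250 bases before the annotated start of the gene, from RefSeq on GRCr8, 5′ to 3′ on the strand of the gene. This assembly is not the rn6 build used for counting, and 8 of the 9 counted members had a promoter in the table. Capitals mark matches on either strand to 3 motifs. The RBPJ site is searched in a long form, GTGGGAA, and in a core form that lacks the first base. Hes and Hey proteins are known to bind the E-box, written CACGTG, and also the related class C site, which ends in CG in place of TG and reads CACGCG. Nrarp lies at chr3:28390495-28390744 on the + strand, Jag1 at chr3:144894884-144895133 on the - strand and Hes1 at chr11:84213046-84213295 on the - strand.
Nrarp: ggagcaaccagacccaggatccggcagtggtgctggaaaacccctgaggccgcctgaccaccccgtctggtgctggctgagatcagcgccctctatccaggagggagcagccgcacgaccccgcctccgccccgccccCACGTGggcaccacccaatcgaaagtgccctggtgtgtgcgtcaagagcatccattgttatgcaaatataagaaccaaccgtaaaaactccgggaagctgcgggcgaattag
Jag1: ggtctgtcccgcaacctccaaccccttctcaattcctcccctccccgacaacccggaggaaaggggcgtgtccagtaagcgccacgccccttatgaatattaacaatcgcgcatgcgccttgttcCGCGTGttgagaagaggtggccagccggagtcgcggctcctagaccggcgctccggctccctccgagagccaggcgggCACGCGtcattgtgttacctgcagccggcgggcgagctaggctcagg
Hes1: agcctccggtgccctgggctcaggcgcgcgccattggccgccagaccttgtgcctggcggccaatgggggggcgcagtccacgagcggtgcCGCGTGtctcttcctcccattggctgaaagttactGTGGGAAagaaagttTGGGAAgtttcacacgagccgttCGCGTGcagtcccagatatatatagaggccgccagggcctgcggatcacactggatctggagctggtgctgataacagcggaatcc

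The Hes1 window holds the long RBPJ site starting 124 bases before the gene and a further core site at 109 bases, both on the strand of the gene. It also holds the class C site at 159 and 86 bases, on the other strand. The Nrarp window holds neither form of the RBPJ site and has a single E-box at 112 bases. The Jag1 window holds no RBPJ site and has class C sites at 125 and 47 bases. Class C sites also lie at 97 and 41 bases in the Notch2 window. Of the other counted members, Hey2 has the long RBPJ site at 61 bases and Dll1 has it at 185 bases on the other strand, and the windows of Notch1, Notch2 and Notch3 have neither form. Over all 33469 promoter windows of this length, 5.27% hold the long RBPJ site, 22.1% its core, 5.59% the E-box and 7.14% the class C site. Every long RBPJ site also counts as a core site. The N-box, a further Hes site with the letters CACNAG, is in 37.2% of windows and in those of Nrarp, Notch1, Notch3 and Hes1. A missing match says only that these letters are not in this window.

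**Figure D1:**
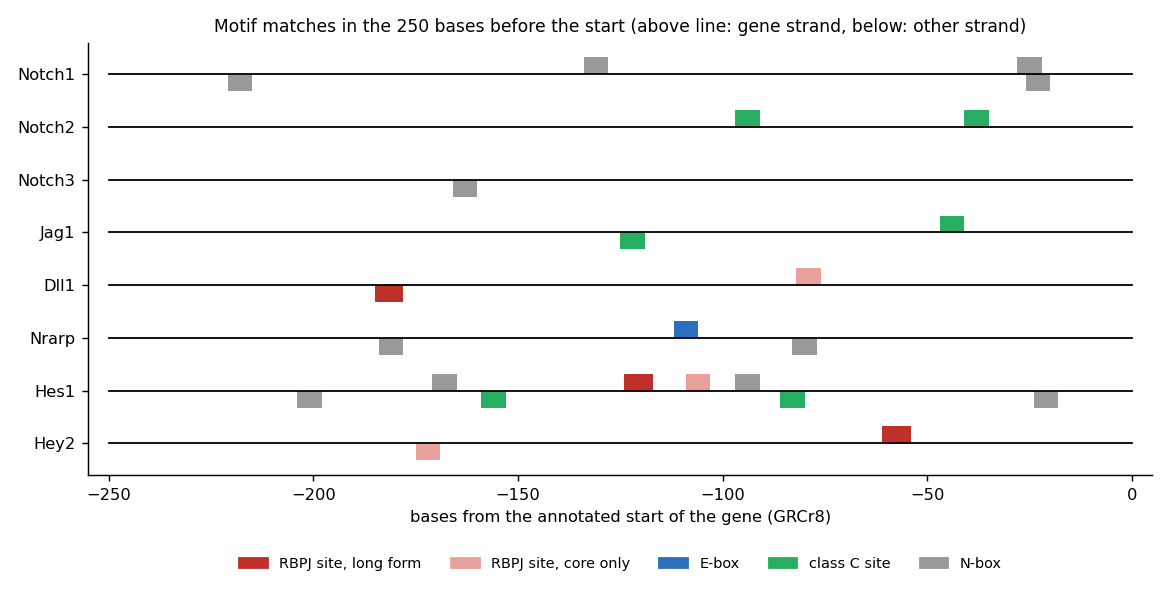
Motif matches in the 250 bases before the annotated start of 8 Notch genes, with the distance from the start in bases on the x axis and the strand shown above (gene strand) or below (other strand) each line. Boxes mark the long and the core form of the RBPJ site, the E-box, the class C site and the N-box, and RBPJ matches are seen at Hes1, Hey2 and Dll1 and not at Nrarp or Jag1.

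Nrarp had 10.7 and 10.0 CPM in Lenti-GFP 1 and 2 and 21.4 and 19.7 CPM in Lenti-AS 1 and 2, from 1000, 952, 1873 and 1481 counts. The nearest samples of the groups were 8.99 CPM apart, while the Lenti-GFP samples differed by 0.668 CPM and the Lenti-AS samples by 1.67 CPM. Nrarp chose the set by this rise, so its values are a description and not a test. Group levels were 10.4 ± 0.472 CPM for Lenti-GFP and 20.5 ± 1.18 CPM for Lenti-AS (SD, n = 2 each), a log2 fold change of 0.98 (standard error 0.09). Leaving out any 1 sample gave values between 0.92 and 1.04.

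The 5 genes with the profile most like that of Nrarp were sought among 10150 genes whose mean normalized count reached 100. Likeness was the distance over the 4 samples between log2(CPM + 0.5) values set relative to each gene's Lenti-GFP mean. The nearest was Gtse1, a cell cycle gene of the G2 and S phases that binds p53, at a distance of 0.0688, with levels of 12.1, 11.0, 22.9 and 21.3 CPM in Lenti-GFP 1, Lenti-GFP 2, Lenti-AS 1 and Lenti-AS 2. Next were the protocadherin gene Pcdh17 (distance 0.113) and the death receptor gene Tnfrsf21 (0.119). LOC688459 followed at 0.136, and Axin2, a feedback inhibitor of Wnt signaling, at 0.157. With 4 samples this likeness is a description, and it largely states that all of these genes were about 2 times higher in both Lenti-AS samples. The log2 fold changes of the 5 genes were 0.94, 0.97, 0.93, 0.93 and 1.09 in the same order.

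Jag1, the Jagged ligand gene, had 388 and 396 CPM in Lenti-GFP 1 and 2 and 186 and 209 CPM in Lenti-AS 1 and 2, from 36197, 37517, 16329 and 15743 counts. The groups did not overlap, and 178 CPM lay between their nearest samples against 8.07 CPM within Lenti-GFP and 23.1 CPM within Lenti-AS. Group levels were 392 ± 5.70 CPM for Lenti-GFP and 198 ± 16.3 CPM for Lenti-AS (SD, n = 2 each). Jag1 fell by 0.99 on the log2 scale in Lenti-AS (standard error 0.07, adjusted p = 0.0103 over 12446 genes, by the quasi-likelihood test of edgeR). A call required an adjusted p below 0.05 together with a fold change of 1.3 or more, the study's cut-offs. Jag1 was the 1 member called lower among the 8 members tested other than Nrarp, where 0.667% of all genes tested were called lower. Its log2 fold change ran from -1.07 to -0.90 over the fits that left out 1 sample. The call held in the fits without Lenti-AS 1 or Lenti-AS 2 and was lost in those without Lenti-GFP 1 or Lenti-GFP 2. With 1 sample left in a group, the spread came from the other group alone. That spread was small within Lenti-GFP, where 9 genes differed more than 2-fold, and larger within Lenti-AS, where 188 did. Keeping or losing the call therefore also reflects which pair was left.

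**Figure D2:**
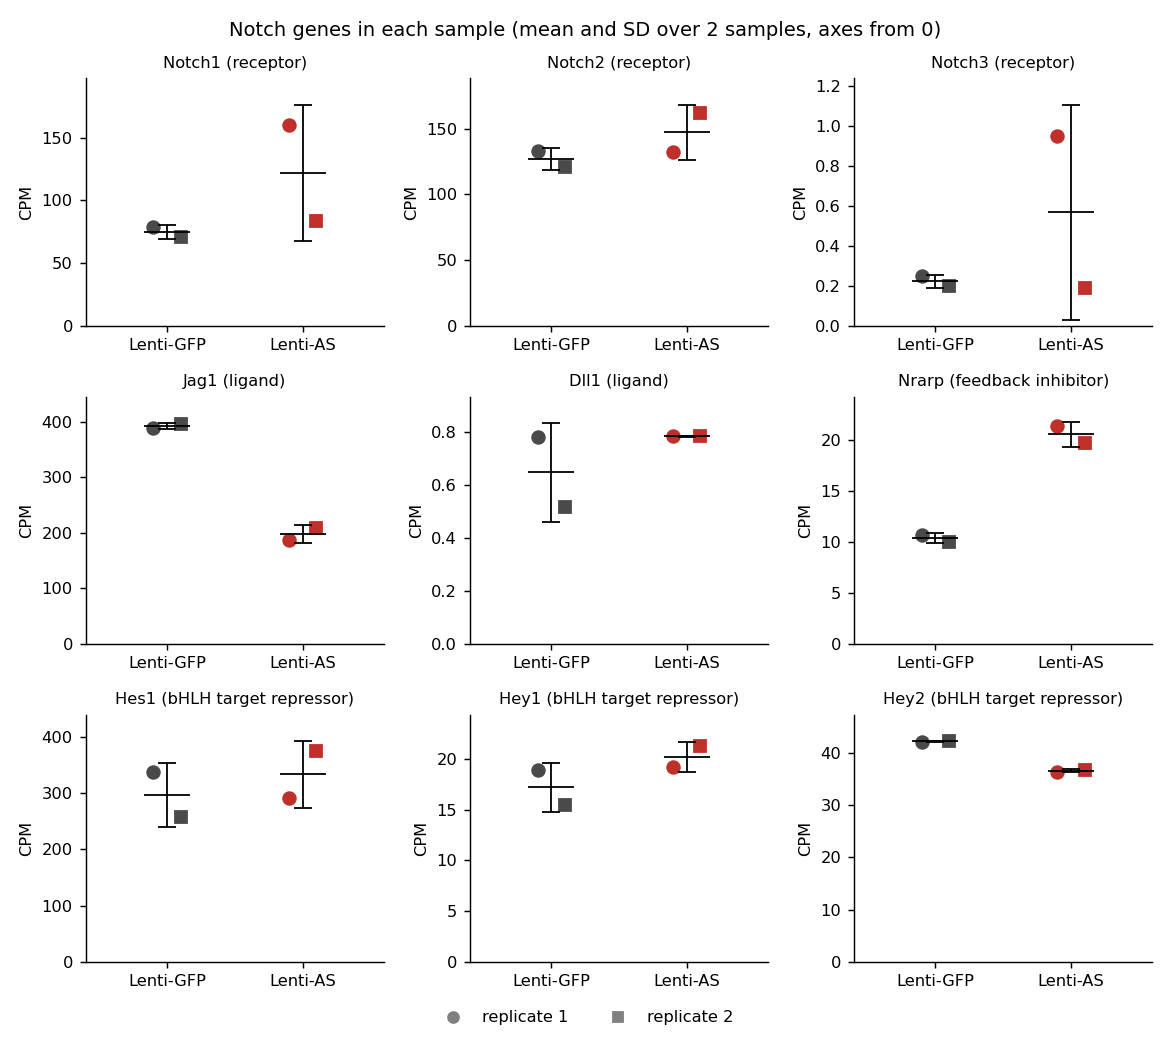
TMM-scaled CPM of 9 Notch genes in the 4 samples, with Lenti-GFP in grey and Lenti-AS in red, circles for replicate 1, squares for replicate 2, and bars for the mean and SD of 2 samples on axes that start at 0. Jag1 sits at 388 and 396 CPM with Lenti-GFP and at 186 and 209 CPM with Lenti-AS, while Notch1 and Notch3 are high in Lenti-AS 1 alone.

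The Delta ligand gene Dll1 was close to the limit of these counts, with 73, 49, 69 and 59 counts in Lenti-GFP 1, Lenti-GFP 2, Lenti-AS 1 and Lenti-AS 2. These are 0.782, 0.517, 0.787 and 0.785 CPM. The counting interval alone (exact Poisson, 95%) ran from 57.2 to 91.8 counts in Lenti-GFP 1 and from 44.9 to 76.1 in Lenti-AS 2, so the samples could not be separated at this depth. Its log2 fold change was 0.28 (standard error 0.31, adjusted p = 0.636, edgeR's quasi-likelihood test), and it was 0.61 without Lenti-GFP 1 and 0.01 without Lenti-GFP 2.

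Notch1 was the receptor with the largest difference between samples among those above 1 CPM. Its levels were 78.9, 70.6, 160 and 83.5 CPM in Lenti-GFP 1, Lenti-GFP 2, Lenti-AS 1 and Lenti-AS 2, from 7368, 6694, 14041 and 6276 counts. Lenti-AS 1 was 1.92 times Lenti-AS 2, and the gap of 76.7 CPM between them exceeded the 4.56 CPM between Lenti-AS 2 and the nearest Lenti-GFP sample. Its log2 fold change was 0.70 (standard error 0.28, unadjusted p = 0.0466, adjusted p = 0.223, edgeR's quasi-likelihood test). It was 0.16 without Lenti-AS 1 and 1.10 without Lenti-AS 2, so its size rests on Lenti-AS 1.

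Notch3 showed the same split at a far lower level. Its counts were 23, 19, 83 and 14 in Lenti-GFP 1, Lenti-GFP 2, Lenti-AS 1 and Lenti-AS 2, or 0.246, 0.200, 0.947 and 0.186 CPM. The counting interval in Lenti-AS 1, from 66.1 to 103 counts, did not reach that of Lenti-AS 2, from 7.65 to 23.5 counts (exact Poisson, 95%, counting error only). The log2 fold change of 1.36 (standard error 0.74, adjusted p = 0.337, edgeR's quasi-likelihood test) became -0.26 without Lenti-AS 1 and 2.08 without Lenti-AS 2.

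Notch2 did not follow them. It had 133 and 121 CPM in Lenti-GFP 1 and 2 and 132 and 162 CPM in Lenti-AS 1 and 2, and here Lenti-AS 2 was the high sample. The groups overlapped, with levels of 127 ± 9.06 CPM and 147 ± 21.0 CPM (SD, n = 2 each). This gave a log2 fold change of 0.21 (standard error 0.11, adjusted p = 0.314, edgeR's quasi-likelihood test).

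Lenti-AS 1 was at least 1.3 times the next highest sample for 2 of the 8 members other than Nrarp, Notch1 and Notch3, and for 8 of the 53 other pathway genes tested. Over all genes tested this held for 6.70%. Chosen after their values were seen, pathway genes with large ratios to the next highest sample were Dtx3, a Deltex ubiquitin ligase gene, at 2.26 and Dlk1, a Delta-like gene, at 1.93. The ratio of Dlk1 rests on few counts, 42, 30, 76 and 2 from Lenti-GFP 1 to Lenti-AS 2. Among the Schwann cell markers, Sox10 (163 CPM against 61.2 to 77.1 CPM) had the same split, as did Col1a1 among the fibroblast markers (2130 CPM against 721 and 840.0 CPM with Lenti-GFP and 290.0 CPM in Lenti-AS 2). What sets this library apart was not tested.

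**Figure D3:**
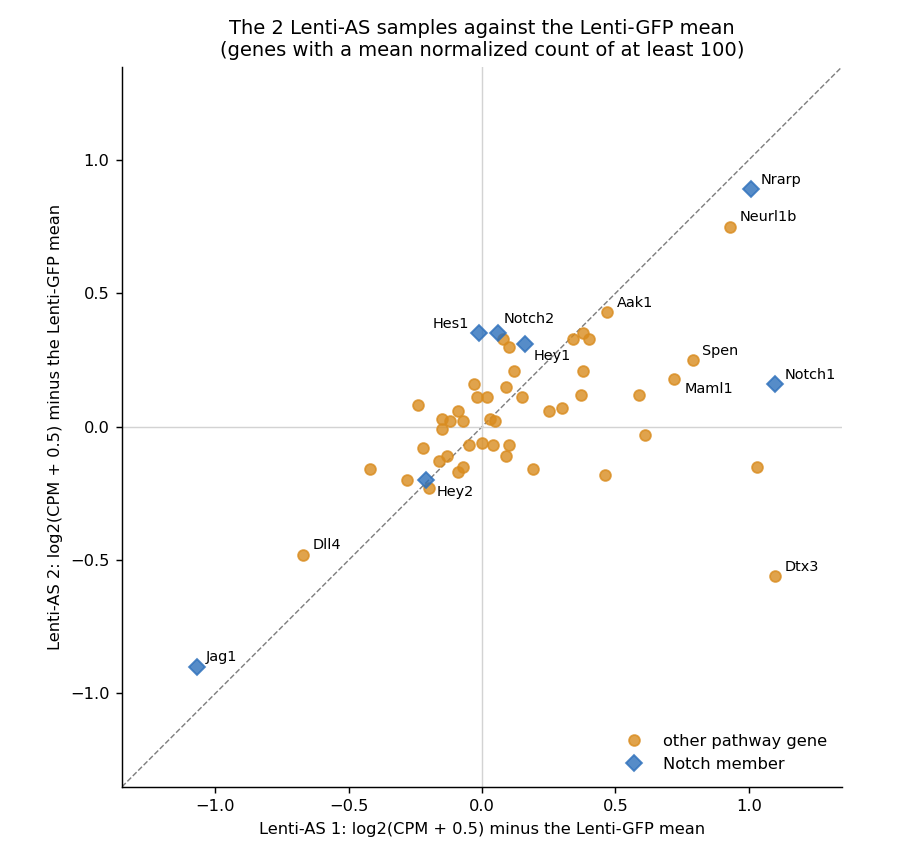
Each Lenti-AS sample against the Lenti-GFP mean, as the difference in log2(CPM + 0.5), with Lenti-AS 1 on the x axis and Lenti-AS 2 on the y axis, for Notch members (diamonds) and other pathway genes (circles) whose mean normalized count was 100 or more. Jag1 (-1.07 and -0.90) and Nrarp (1.01 and 0.89) lie near the dashed line of equal difference, while Notch1 (1.10 and 0.16) lies well to its right.

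Hes1, a basic helix-loop-helix repressor and a direct target of the RBPJ complex, had 338 and 257 CPM in Lenti-GFP 1 and 2 and 292 and 376 CPM in Lenti-AS 1 and 2. The groups overlapped, and the 81.1 CPM within Lenti-GFP was as wide as the 83.6 CPM within Lenti-AS. The levels were 297 ± 57.3 CPM and 334 ± 59.1 CPM (SD, n = 2 each), a log2 fold change of 0.17 (standard error 0.16, adjusted p = 0.579, edgeR's quasi-likelihood test). Its direction turned, to -0.02, without Lenti-GFP 2 and without Lenti-AS 2.

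Hey1, a related repressor, had 18.9 and 15.5 CPM in Lenti-GFP 1 and 2 and 19.2 and 21.3 CPM in Lenti-AS 1 and 2. The nearest samples of the groups were 0.362 CPM apart, against 3.37 CPM within Lenti-GFP. Hey1 had a log2 fold change of 0.24 (standard error 0.12, adjusted p = 0.290, edgeR's quasi-likelihood test).

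Hey2 differed little but evenly. It had 42.2 and 42.3 CPM in Lenti-GFP 1 and 2 and 36.4 and 36.8 CPM in Lenti-AS 1 and 2, with 5.37 CPM between the nearest samples against 0.133 and 0.386 CPM within the groups. The log2 fold change was -0.21 (standard error 0.06, unadjusted p = 0.0175, adjusted p = 0.146, edgeR's quasi-likelihood test), so Hey2 did not pass the test.

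Of the 8 members tested other than Nrarp, 0 were called higher by edgeR's quasi-likelihood test, where 1.31% of all genes tested were called higher. At an unadjusted p under 0.05 there was 1 higher (Notch1) and 2 lower (Jag1 and Hey2), where 12.5% of all genes tested were higher and 9.37% lower at that threshold. The log2 fold changes of Notch1 and Notch3 were 1.10 and 2.08 without Lenti-AS 2, and 0.16 and -0.26 without Lenti-AS 1. The groups did not overlap in 5 of the 8, with Notch1, Dll1 and Hey1 above and Jag1 and Hey2 below, where 54.9% of all genes tested had groups that did not overlap, so this share is near the background. The median log2 fold change of the 8 was 0.223, beside 0.007 over all genes tested.

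DESeq2, the tool that the study's methods name, gave an adjusted p to 6 of these 8 members and called 0 higher and 1 lower. The latter was Jag1 again (log2 fold change -0.99, standard error 0.08, adjusted p = 4.90e-31). Over all genes with an adjusted p from DESeq2, 4.86% were called higher and 1.39% lower. Notch3 and Dll1 were given no adjusted p by this tool.

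The other genes of the pathway were taken from a list of 64, of which 57 had a row in the table and 53 were tested. By edgeR's quasi-likelihood test Aak1 was called higher and 0 were called lower, where 1.31% and 0.667% of all genes tested were. At an unadjusted p under 0.05, 9 were higher and 4 lower (12.5% and 9.37% of all genes tested). Dll3, Hes2, Hes3 and Hes5 had too few counts to be tested. The median log2 fold change of the 53 was 0.049, beside 0.007 over all genes tested. Aak1 encodes a kinase that phosphorylates Numb and the clathrin adaptor AP2. It had 15.9 and 16.2 CPM in Lenti-GFP 1 and 2 and 22.5 and 21.9 CPM in Lenti-AS 1 and 2, a log2 fold change of 0.46 (standard error 0.07, adjusted p = 0.0419). The call was lost with edgeR's newer quasi-likelihood fit (adjusted p = 0.0531), and without Lenti-GFP 1 or Lenti-GFP 2 (adjusted p = 0.373 and 0.502). The other 7 tested genes of receptor trafficking and turnover, such as Numb, Itch and the Deltex genes, did not pass.

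Among the other receptors and ligands, 0 of 4 passed edgeR's quasi-likelihood test in either direction. At an unadjusted p under 0.05, 1 was lower, where 9.37% of all genes tested were. That gene was Dll4, a Delta ligand best known from endothelial cells, with 1.71 and 2.05 CPM in Lenti-GFP 1 and 2 and 0.993 and 1.20 CPM in Lenti-AS 1 and 2. Its counts were 160, 194, 87 and 90, and its log2 fold change was -0.78 (standard error 0.23, adjusted p = 0.137). Both Dll4 and Jag1 were therefore lower in both Lenti-AS samples, with only Jag1 past the threshold. The other ligand genes did not share this. In the sparsely counted Dll1 and Dll3 both Lenti-AS samples lay above both Lenti-GFP samples, but by only 0.00287 and 0.00602 CPM, which sets no direction. Dll3 had 5, 7, 7 and 12 counts from Lenti-GFP 1 to Lenti-AS 2 and was not tested. In Dlk1 and Dlk2 the groups overlapped. Over all genes tested, 54.9% had groups that did not overlap.

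Of the 4 genes for ubiquitination of the ligands, a step that the sending cell needs to pull on the receptor, 0 passed edgeR's quasi-likelihood test. Over all genes tested, 1.31% were called higher and 0.667% lower. At an unadjusted p under 0.05, 1 of the 4 was higher, where 12.5% of all genes tested were. Neurl1b had 0.964 and 1.15 CPM in Lenti-GFP 1 and 2 and 2.45 and 2.11 CPM in Lenti-AS 1 and 2, a log2 fold change of 1.11 (standard error 0.22, adjusted p = 0.0674). It was called higher by DESeq2 (adjusted p = 0.00966), where 4.86% of all genes were, and by edgeR with no filter on low counts (adjusted p = 0.0486). It was not called by limma-voom (adjusted p = 0.0677), edgeR's newer quasi-likelihood fit (adjusted p = 0.0581) or edgeR with a replicate block (adjusted p = 0.128). Leaving out any 1 sample gave log2 fold changes between 0.99 and 1.25.

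Among the enzymes that modify the receptors, 0 of the 6 receptor glycosylation genes passed and 0 had an unadjusted p under 0.05 (edgeR's quasi-likelihood test). Their log2 fold changes ran from -0.85 to 0.05, the lowest being that of Mfng, a sparsely counted Fringe gene named after its values were seen, with 38, 32, 24 and 10 counts in Lenti-GFP 1, Lenti-GFP 2, Lenti-AS 1 and Lenti-AS 2 (standard error 0.45, adjusted p = 0.328). Lfng, the Fringe glycosyltransferase gene that changes which ligands a receptor prefers, had 138 and 115 CPM with Lenti-GFP and 108 and 119 CPM with Lenti-AS, a log2 fold change of -0.16 (standard error 0.10, adjusted p = 0.410). The 9 receptor cleavage genes include Adam10, Adam17 and the γ-secretase subunits. Of these 9, 0 passed and 1 was higher at an unadjusted p under 0.05, where 12.5% of all genes tested were. The log2 fold changes of the 9 ran from -0.06 to 0.25. The largest was that of Ncstn, a γ-secretase subunit gene, with 55.3 and 53.9 CPM with Lenti-GFP and 70.7 and 59.5 CPM with Lenti-AS (standard error 0.10, adjusted p = 0.212).

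In the nucleus, 0 of 6 genes of the RBPJ transcription complex passed in either direction, with 4 higher and 0 lower at an unadjusted p under 0.05 (edgeR's quasi-likelihood test), where 12.5% and 9.37% of all genes tested were. Maml1, a Mastermind coactivator gene, had 11.9 and 10.4 CPM in Lenti-GFP 1 and 2 and 18.7 and 12.7 CPM in Lenti-AS 1 and 2, a log2 fold change of 0.49 (standard error 0.19, adjusted p = 0.212), and it too was highest in Lenti-AS 1. The log2 fold change of Maml1 was 0.75 without Lenti-AS 2 and 0.19 without Lenti-AS 1. The other genes of the complex higher at an unadjusted p under 0.05 were Maml3, Crebbp and Kat2a, named after their values were seen. They did not share this split. In each, both Lenti-AS samples lay above both Lenti-GFP samples, and Lenti-AS 1 was 1.05, 1.02 and 1.01 times Lenti-AS 2 in the same order. Such an order is common, being found in 3444 of all 12446 genes tested. Among 13 RBPJ corepressors tested, 0 passed and 2 were higher and 1 lower at an unadjusted p under 0.05. Of the 3 other Hes and Hey genes tested, 0 passed and 0 had an unadjusted p under 0.05. Hes6, a family member that opposes Hes1, had 59.6 and 60.6 CPM with Lenti-GFP and 64.2 and 66.6 CPM with Lenti-AS, a log2 fold change of 0.12 (standard error 0.07, adjusted p = 0.345). DESeq2 gave an adjusted p to 47 of the listed genes and called 3, all of them higher, which were Neurl1b, Aak1 and Spen. Spen, which encodes a corepressor, had an adjusted p of 0.0317 with DESeq2. Over all genes with an adjusted p from DESeq2, 4.86% were called higher and 1.39% lower, so 3 of 47 is near the background.

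**Figure D4:**
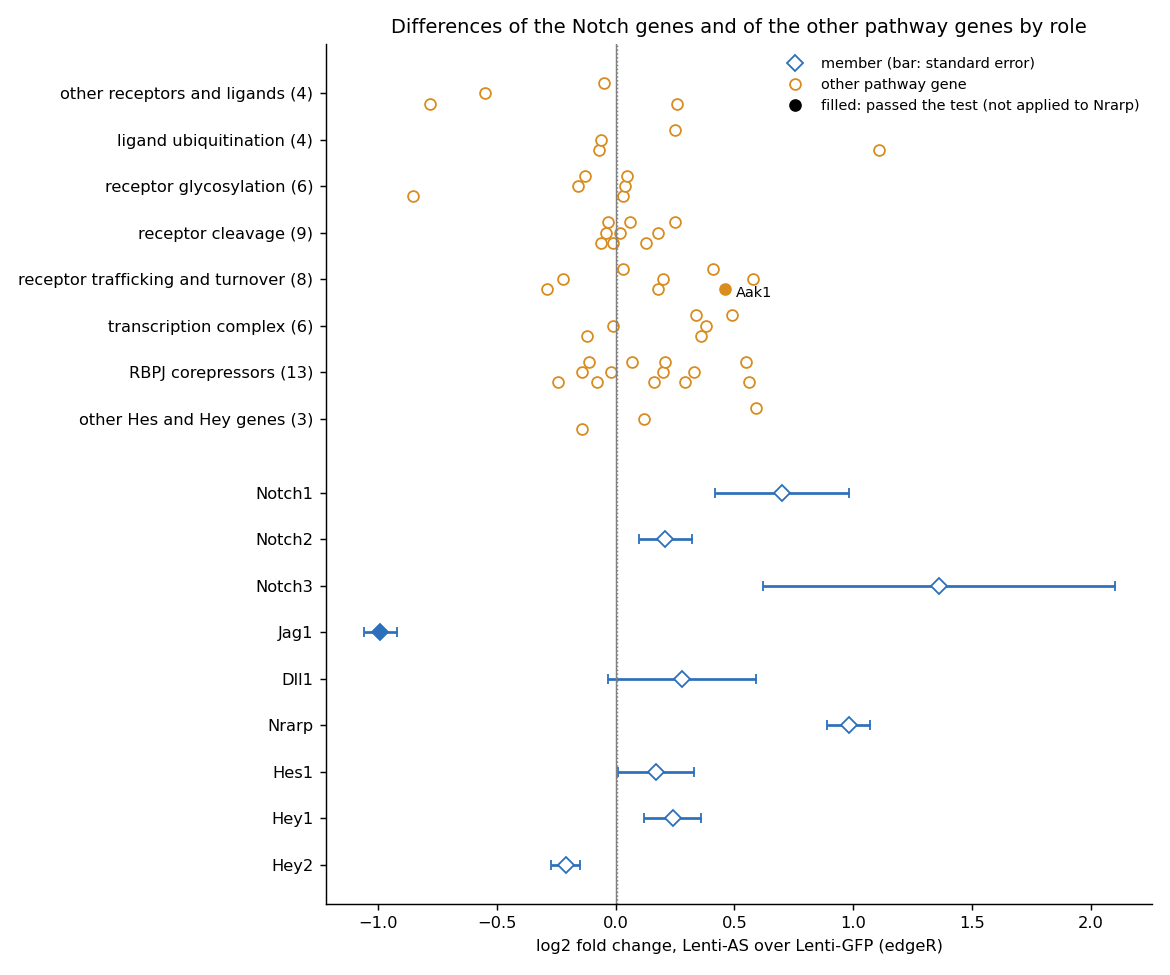
Log2 fold change of Lenti-AS over Lenti-GFP by edgeR for 9 Notch members (diamonds, bars are the standard error) and for the other pathway genes by role (circles, the number tested in parentheses), with filled symbols for genes past the test and a dotted line at the median of all genes. Jag1 at -0.99 and Aak1 at 0.46 are the filled symbols, and no test was applied to Nrarp at 0.98.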

How the data were processed

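RNA-seq counts of 4 samples of rat SCs were used, 2 per group, mapped to groups by their titles and column names. The authors deposited whole-number counts per gene, without normalization. Their 50 bp paired-end reads were aligned to rn6, with hisat2 per the paper's methods and GSNAP per the submitters' processing notes, and counted with featureCounts over RefSeq exons. Versions and the strand setting are not given in the sources used here, so reads of a gene and of an antisense partner cannot be told apart. Of the table, 1 row that repeats the header was dropped, leaving 17949 genes.

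The 12446 genes that reached 10 counts in 2 or more samples were compared in R 4.3.3 by edgeR 4.0.16 (TMM factors, glmQLFit with default settings, glmQLFTest, no replicate term), with Benjamini-Hochberg adjustment over all of them. A permutation test of 2 against 2 cannot give a two-sided p under 0.333. The standard error was taken from the F statistic. Alternatives were DESeq2 1.42.0, limma-voom (limma 3.58.1), other scalings, filters and cut-offs, a replicate block and leaving out each sample. The script was tested on simulated data. The members, lists and rules were chosen with earlier results of these data known. Apart from all members, the pathway genes named were those called and, in roles with none, the gene with the largest change at a mean normalized count of at least 100. Not every gene under this rule is reported here.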

Additional observations from a re-analysis of the deposited data

How the results depend on the processing

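The log2 fold changes of Jag1 (-0.99 to -0.95) and Nrarp (0.98 to 1.02) and the call of Jag1 held under DESeq2, limma-voom, the newer quasi-likelihood fit, RLE and upper-quartile factors, library totals and both other low-count filters. Notch3 and Dll1 could not be tested with the filter at 1 CPM. Over all genes, 163 were called higher and 83 lower. DESeq2 gave 488 and 139, a fold cut-off of 1.5 gave 81 and 43, and a replicate block gave 3 and 14. Other pathway genes called higher, 1 by the test as reported, were 3 with DESeq2, 2 without a filter on low counts, and 0 with the newer fit, the replicate block or the fold cut-off of 1.5. The replicate numbers share no stated culture, and the deviations of samples with the same number were uncorrelated over genes (r = -0.0123). Under the block Jag1 kept its call (adjusted p = 0.0196) and Aak1 lost it (adjusted p = 0.119), with 1 residual degree of freedom in place of 2. The cause of these changes was not tested.

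Leaving out 1 sample at a time, where the lone sample of a group is assumed to vary like the other group, gave 0 to 1266 genes higher and 1 to 271 lower, 0 to 2 members higher and 0 to 1 lower, and 0 to 11 other pathway genes higher and 0 to 2 lower. Over these fits the log2 fold change ran from -0.26 to 2.08 for Notch3, lowest without Lenti-AS 1, and from -0.02 to 0.38 for Hes1, lowest without Lenti-AS 2 and without Lenti-GFP 2. Among the genes like Nrarp, an alternative added after seeing the data, Pcdh17 moved to 0.87 without Lenti-AS 1 and 1.07 without Lenti-AS 2. Depth limits Notch3 and Dll1, with 14 to 83 counts per sample.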
